A study of Mus musculus with 5 samples.

Results

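The interleukin-1 (IL-1) family, as 10 of the 28666 genes in the uterine count table, was examined after mating with sterilized males of 2 age ranges. The genes were taken by name: the agonists Il1a, Il1b, Il1f6 and Il1f9, the receptor antagonist Il1rn, the cytokines Il18 and Il33, and the receptors Il1r1, Il1r2 and Il1rl1. Each of the 10 was found once and had enough counts for testing. The females were ICR mice of 6 to 8 weeks, and the C57BL/6 males they mated with were vasectomized, so that they delivered seminal plasma (SP) but no sperm. The males were 12 to 18 months old in the aged-SP group (2 libraries, replicates 1 and 4) and 12 to 14 weeks old in the young-SP group (3 libraries, replicates 1, 2 and 4). All females had thus received SP, and no unmated female was analysed here. Uteri were collected at 3.0 dpc (days post coitum), before any embryo transfer, while the sample labels place collection 3.5 days after caging. The sources used here do not state whether a library came from 1 female, so that the p-values measure the spread between libraries.

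IL-1α and IL-1β are alarm cytokines of epithelium and of myeloid cells. Both signal through IL-1R1 and its accessory protein IL-1RAcP to MyD88 and NF-κB, and induce chemokines and prostaglandin synthesis. IL-1 receptor antagonist occupies IL-1R1 without signalling, and IL-1R2 is a decoy that binds IL-1 without a signalling tail. IL-36α (Il1f6) and IL-36γ (Il1f9) are epithelial relatives that act on IL-36R (Il1rl2), IL-18 matures through caspase-1, and IL-33 is a nuclear alarmin whose receptor ST2 (Il1rl1) is carried by mast cells and type 2 lymphocytes. In the uterus, the family takes part in the leukocyte influx after mating and in the dialogue of embryo and endometrium at implantation.

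Total counts were between 15071914 and 16728601 per library. On the first principal component of the 500 most variable genes, young-SP replicate 1 (-9.43) lay towards the aged-SP libraries (-43.7 and -25.5) and away from young-SP replicates 2 (41.9) and 4 (36.6). On the second, it stood apart from both groups, at -30.7 against -3.16 to 13.7 for the others. The chi-square per degree of freedom between its counts and those of another library was lowest for young-SP replicate 4 (36.8) and highest for aged-SP replicate 1 (50.4). Results are therefore given with and without young-SP replicate 1. The tissue label was met by the markers: Krt8 of epithelium was between 202 and 400 CPM (counts relative to the library size after edgeR's TMM), Hoxa10 of stroma between 437 and 518 CPM and Myh11 of smooth muscle between 3048 and 5104 CPM. Of 9 genes of the stratified epithelium of vagina and cervix, the basal keratins Krt5 and Krt14 did not exceed 0.333 CPM, while Krt10 reached 14.9 CPM, Lor 4.65 CPM and Dsg3 3.8 CPM.

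Between the groups, 0 of the 10 family genes were called differentially expressed by edgeR's quasi-likelihood test (adjusted p under 0.05 over 17013 tested genes and an absolute log2 fold change over 1), where 0.147% of all tested genes were called. The family was divided by its spread inside the groups. Il1f6, Il1f9, Il1b and Il1rn were each highest in the same pair of libraries, aged-SP replicate 1 and young-SP replicate 1, and low or at 0 in young-SP replicates 2 and 4. Il1a was high in aged-SP replicate 1 alone. Il33 and Il1r1 stayed within 1.33-fold and 1.40-fold over all 5 libraries, and Il18, Il1rl1 and Il1r2 within 2.33-fold, 2.32-fold and 3.56-fold.

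**Figure D1:**
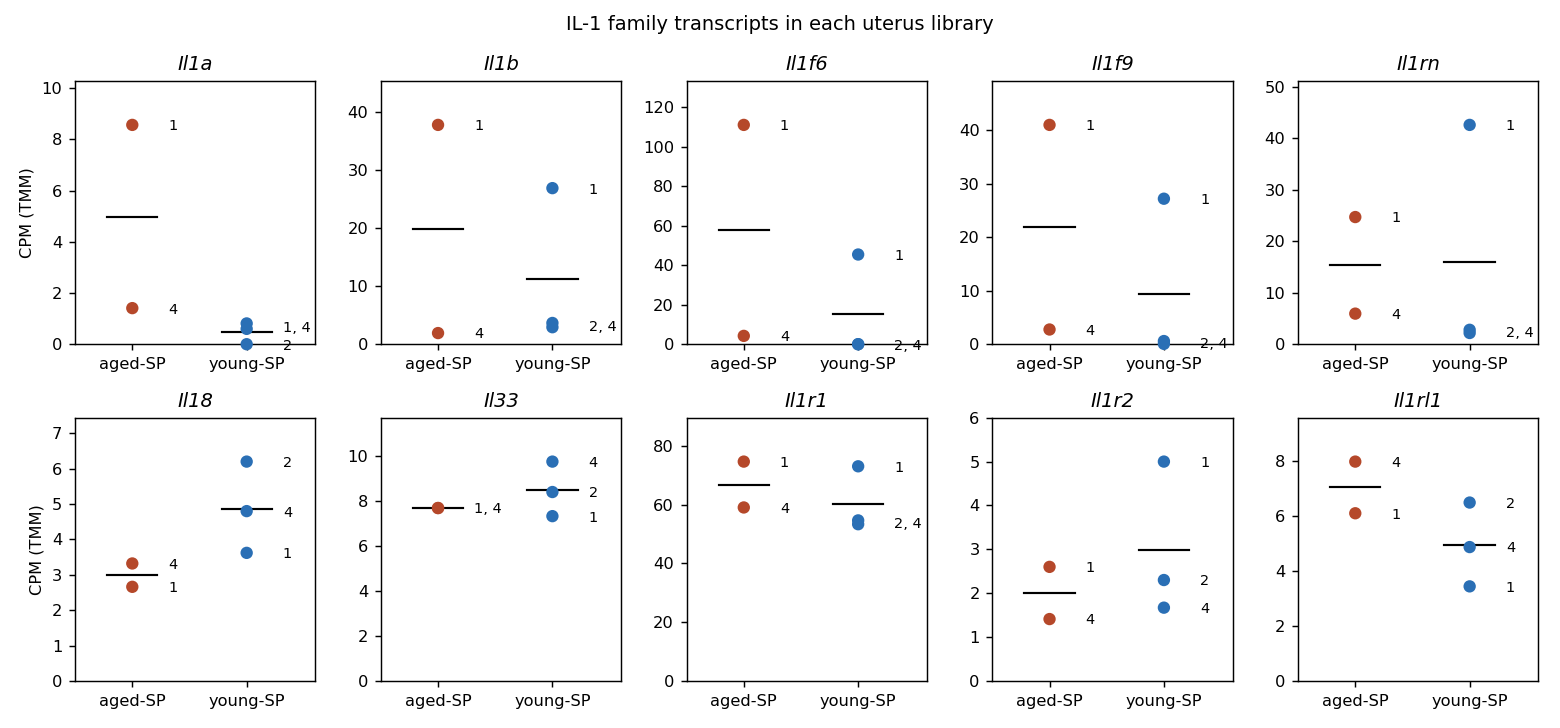
Level of each family gene (CPM after TMM scaling, linear axis from 0) in the 2 aged-SP and 3 young-SP libraries, with the replicate number beside each point and the group mean as a bar. Il1b, Il1f6, Il1f9 and Il1rn have 1 high library in each group, whereas the points of Il33 and Il1r1 lie close together.

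Il1a and Il1b are neighbours on chromosome 2 (GRCm38), on the minus strand at chr2:129299610-129309972 and chr2:129364570-129371139. Il1f9 (chr2:24186476-24193568), Il1f6 (chr2:24215418-24225702) and Il1rn (chr2:24336853-24351494) lie on the plus strand of the same chromosome, in a cluster with Il1f8, Il1f5 and Il1f10. The receptors form another cluster, on chromosome 1, in the order Il1r2 (chr1:40074079-40125231), Il1r1 (chr1:40225080-40317257), Il1rl2, Il1rl1 (chr1:40429570-40465415), Il18r1 and Il18rap. Il18 (chr9:50554827-50581840) and Il33 (chr19:29925114-29960718) stand alone. The 5 genes with the widest spread between libraries were thus all on chromosome 2, in 2 clusters.

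The promoters of Il1a, Il1b, Il1f9 and Il1rn are shown because, with Il1f6, these genes varied most between the libraries. Each sequence runs 5′ to 3′ on the strand of the gene, from 250 bases before to 50 bases after the RefSeq gene start (GRCm38.p6), with motif matches in capitals. The windows are chr2:129309923-129310222 (minus strand) for Il1a, chr2:129371090-129371389 (minus strand) for Il1b, chr2:24186226-24186525 for Il1f9 and chr2:24336610-24336909 for the first listed start of Il1rn.
Il1a: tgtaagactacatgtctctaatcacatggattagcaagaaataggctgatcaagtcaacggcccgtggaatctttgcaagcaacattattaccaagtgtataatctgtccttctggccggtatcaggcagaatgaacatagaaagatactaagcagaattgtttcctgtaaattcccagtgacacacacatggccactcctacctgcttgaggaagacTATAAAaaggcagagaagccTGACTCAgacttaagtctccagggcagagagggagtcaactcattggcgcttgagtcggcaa
Il1b: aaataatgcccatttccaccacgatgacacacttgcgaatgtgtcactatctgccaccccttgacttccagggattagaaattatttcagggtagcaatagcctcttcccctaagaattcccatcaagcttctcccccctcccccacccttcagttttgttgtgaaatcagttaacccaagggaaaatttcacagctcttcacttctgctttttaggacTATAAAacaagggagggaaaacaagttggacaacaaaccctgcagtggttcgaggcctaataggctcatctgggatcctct
Il1f9: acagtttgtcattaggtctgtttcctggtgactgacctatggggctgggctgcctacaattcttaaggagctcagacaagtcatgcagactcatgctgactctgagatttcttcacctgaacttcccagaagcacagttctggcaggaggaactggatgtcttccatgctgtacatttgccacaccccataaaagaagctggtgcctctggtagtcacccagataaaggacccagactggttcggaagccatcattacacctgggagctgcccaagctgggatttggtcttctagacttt
Il1rn: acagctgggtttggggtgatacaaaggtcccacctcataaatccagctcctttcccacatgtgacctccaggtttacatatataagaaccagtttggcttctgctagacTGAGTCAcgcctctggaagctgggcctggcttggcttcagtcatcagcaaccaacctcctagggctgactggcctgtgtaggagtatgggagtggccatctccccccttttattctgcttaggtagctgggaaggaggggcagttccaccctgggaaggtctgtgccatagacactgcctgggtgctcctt
A TATA box (TATAAA on either strand) began 32 bases before the start of Il1a and 31 bases before that of Il1b, and 13.6% of 32851 RefSeq mouse promoters of this length held one. An AP-1 motif (TGANTCA on either strand) was found 12 bases before the start of Il1a and 141 bases before the first listed start of Il1rn. Among all promoters, 7.81% held one. The C/EBP motif TTGCNNAA (10.8% of promoters) and the NF-kB motif (8.46%) had 0 matches in these 4 windows, and the Il1f9 window held none of the 4 motifs. No motif overlapped another. At the other listed starts of Il1rn, not shown, AP-1 had 0 matches, while the window chr2:24345121-24345420 held a TATA box match. These matches are descriptions of the letters, not binding sites.

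Il1a encodes IL-1α, which is active without processing and is released by damaged epithelium. It had 142 and 22 counts in aged-SP replicates 1 and 4, and 13, 0 and 9 counts in young-SP replicates 1, 2 and 4. On the CPM scale these were 8.57 and 1.41 against 0.812, 0 and 0.6. Both aged-SP libraries were above the 3 young-SP libraries, though aged-SP replicate 1 was 6.10 times as high as replicate 4. Mean levels were 4.99 ± 5.07 CPM (SD, n = 2) and 0.471 ± 0.421 CPM (SD, n = 3). The log2 fold change of 3.40 (standard error, SE, 1.15) had an unadjusted p = 0.0281 and did not pass the adjustment (adjusted p = 0.213, edgeR; adjusted p = 0.0608, DESeq2's Wald test). Il1a was the only member with an unadjusted p under 0.05 by edgeR, a share of members (1 of 10) below the 19.0% of all tested genes. Without aged-SP replicate 1, the log2 fold change was 1.57.

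Il1b encodes IL-1β, the secreted agonist made mainly by myeloid cells. Its counts were 626 and 30 in aged-SP replicates 1 and 4, and 430, 62 and 44 in young-SP replicates 1, 2 and 4. The libraries numbered 1 were high in both groups, and aged-SP replicate 4 was the lowest of all, so that the groups overlapped. Mean levels of 19.9 ± 25.4 CPM (SD, n = 2) and 11.2 ± 13.6 CPM (SD, n = 3) differed by 0.83 on the log2 scale (SE 1.38, adjusted p = 0.781, edgeR). Left without aged-SP replicate 1, it turned to -2.54, and without young-SP replicate 1 it was 2.58 (adjusted p = 0.305).

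Il1f6 encodes IL-36α, an epithelial cytokine. It had 1844 and 66 counts in aged-SP replicates 1 and 4, 726 counts in young-SP replicate 1, and 0 counts in young-SP replicates 2 and 4. A count of 0 allows up to 3 counts in these libraries, or 0.181 and 0.199 CPM. Against the higher of these floors, Il1f6 was at least 559-fold higher in aged-SP replicate 1, at least 228-fold higher in young-SP replicate 1 and at least 21.2-fold higher in aged-SP replicate 4. Of the 17013 tested genes, 5 had a larger standard deviation of log2 CPM over the libraries than Il1f6 (4.61, against a median gene of 0.25). The group means of 57.8 ± 75.7 CPM (SD, n = 2) and 15.1 ± 26.2 CPM (SD, n = 3) did not separate (log2 fold change 1.93, SE 2.2, adjusted p = 0.673, edgeR).

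Il1f9, which encodes the related agonist IL-36γ, followed the same order of libraries. Its counts were 680 and 43 in aged-SP replicates 1 and 4, and 436, 10 and 1 in young-SP replicates 1, 2 and 4. Young-SP replicate 1 was thus 46.1 times as high as young-SP replicate 2 and reached 27.2 CPM, between the 2 aged-SP libraries (41.0 and 2.75 CPM). The log2 fold change was 1.24 (SE 1.91, adjusted p = 0.763, edgeR), with means of 21.9 ± 27.1 CPM (SD, n = 2) and 9.30 ± 15.5 CPM (SD, n = 3).

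Il1rn encodes the receptor antagonist and was the only one of the 5 variable genes with its maximum in the young-SP group. It had 409 and 93 counts in aged-SP replicates 1 and 4, and 682, 37 and 42 counts in young-SP replicates 1, 2 and 4. Both aged-SP libraries were above young-SP replicates 2 and 4 and below young-SP replicate 1. The means were nearly equal, 15.3 ± 13.3 CPM (SD, n = 2) and 15.9 ± 23.2 CPM (SD, n = 3), and the log2 fold change was -0.05 (SE 1.39, adjusted p = 0.989, edgeR). Its sign depended on the processing, being 0.94 with limma-voom and 2.61 (adjusted p = 0.118, edgeR) without young-SP replicate 1.

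Inside each group, the 5 variable genes differed by more than 95% of tested genes did. Between aged-SP replicates 1 and 4, the log2 difference was 4.68 for Il1f6, 4.22 for Il1b, 3.84 for Il1f9, 2.51 for Il1a and 2.03 for Il1rn, while 95% of tested genes differed by less than 1.21 in either direction. Young-SP replicate 1 exceeded the mean of young-SP replicates 2 and 4 by 8.51 (Il1f6), 6.21 (Il1f9), 4.04 (Il1rn), 2.99 (Il1b) and 1.64 (Il1a), against a 95th percentile of 1.37. The value of Il1a depended on the 0 counts in young-SP replicate 2, since young-SP replicate 1 was only 1.35 times as high as young-SP replicate 4. Aged-SP replicate 1 and young-SP replicate 1 were close for Il1b (1.41-fold), Il1f9 (1.51-fold) and Il1f6 (2.45-fold, each higher in the aged-SP one). Il1rn in aged-SP replicate 1 was 0.579 times its level in young-SP replicate 1, whereas Il1a was 10.6-fold higher in the aged-SP one. Il18, Il33 and the 3 receptor genes were within both percentiles, with Il1r2 nearest to them (0.83 and 1.30).

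**Figure D2:**
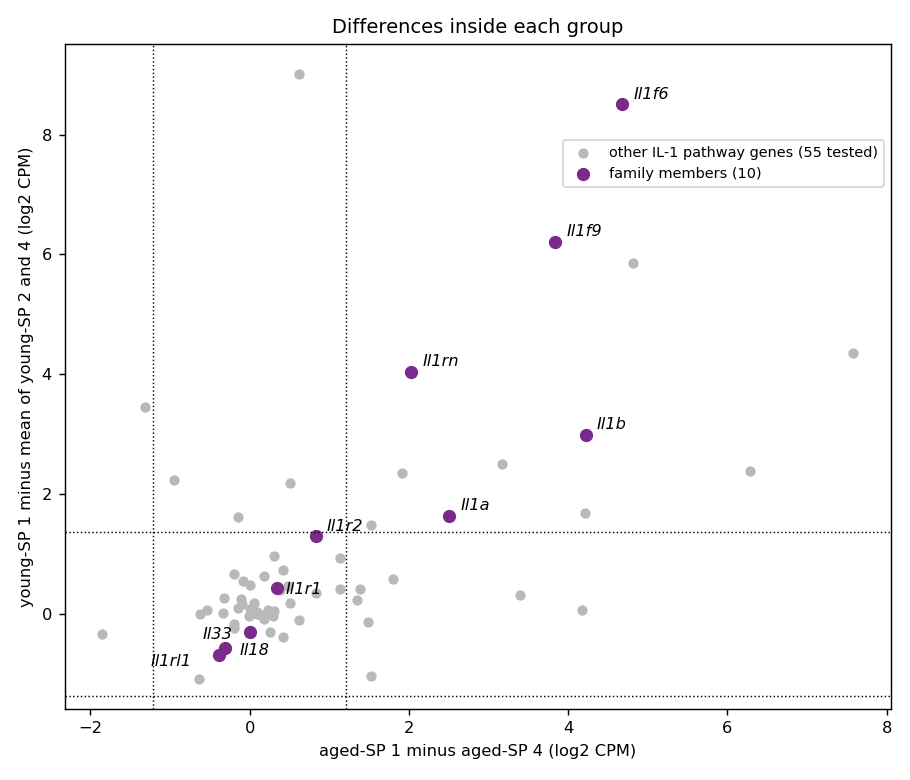
Difference inside the aged-SP group (x axis) against the difference inside the young-SP group (y axis), both in log2 CPM, for the 10 family genes (purple) and 55 other IL-1 pathway genes (grey). Dotted lines mark the absolute difference below which 95% of tested genes lie (1.21 and 1.37). Il1f6, Il1f9, Il1rn, Il1b and Il1a are beyond both lines, and the other 5 members are within both. The y value of Il1a depends on 0 counts in young-SP replicate 2.

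Il18 and Il33 encode cytokines that tissue cells hold as preformed proteins. Il18 had 44 and 52 counts in aged-SP replicates 1 and 4, and 58, 105 and 72 counts in young-SP replicates 1, 2 and 4. Both aged-SP libraries were below the young-SP libraries (2.99 ± 0.471 CPM, SD, n = 2, against 4.87 ± 1.29 CPM, SD, n = 3). The log2 fold change of -0.71 (SE 0.31) did not pass the test (adjusted p = 0.297, edgeR), nor did the -0.89 found without young-SP replicate 1 (adjusted p = 0.145). Its spread over the libraries (SD of log2 CPM 0.46) was above that of the median gene (0.25), and 24.9% of tested genes varied more. Il18 and Il1a were the 2 members without overlap between the groups, a share below the 38.8% of all tested genes without overlap. In bulk tissue, fewer cells of a type and less RNA per cell cannot be told apart.

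Il33 had 127 and 120 counts in aged-SP replicates 1 and 4, and 117, 142 and 146 counts in young-SP replicates 1, 2 and 4. It was the steadiest member, and 69.9% of all tested genes varied more between libraries. Its log2 fold change was -0.14 (SE 0.19, adjusted p = 0.724, edgeR), and -0.25 without young-SP replicate 1.

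Among the receptors, Il1r1 encodes the signalling receptor of IL-1α and IL-1β. It was at 74.6 and 59.0 CPM in aged-SP replicates 1 and 4, and at 73, 54.6 and 53.3 CPM in young-SP replicates 1, 2 and 4. The libraries numbered 1 were again the higher ones, but by 1.27-fold to 1.37-fold only, and the groups overlapped (log2 fold change 0.15, SE 0.18, adjusted p = 0.701, edgeR; 0.30 without young-SP replicate 1). Il1r2, the decoy receptor, had 43 and 22 counts in the aged-SP group and 80, 39 and 25 counts in the young-SP group. Its highest library was young-SP replicate 1, and its log2 fold change, -0.58 with all libraries (SE 0.57, adjusted p = 0.622, edgeR), was 0.00 without that library.

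Il1rl1 encodes the IL-33 receptor ST2. Its counts were 101 and 125 in aged-SP replicates 1 and 4, and 55, 110 and 73 in young-SP replicates 1, 2 and 4, with young-SP replicate 1 the lowest. Its log2 fold change was 0.51 (SE 0.32, adjusted p = 0.435, edgeR), 0.29 without young-SP replicate 1 and 0.30 without aged-SP replicate 4. The summed level of 8 mast cell genes was likewise highest in aged-SP replicate 4 (226 CPM) and lowest in young-SP replicate 1 (44.3 CPM). In between, the orders differed. The sum was 78.9 CPM in aged-SP replicate 1 and 81.2 and 114 CPM in young-SP replicates 2 and 4, where Il1rl1 was at 6.1, 6.49 and 4.87 CPM. Kit alone of these genes was lowest in aged-SP replicate 4 (15.1 CPM). The part of mast cells in the level of Il1rl1 was not tested.

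Levels were compared between genes on the FPKM scale, which divides by gene length. By the median of the 5 libraries, Il1r1 ranked first (9.25 FPKM, range 8.34 to 11.6). It was followed by Il1f6 (4.77, range 0 to 125 FPKM), Il18 (3.49, range 2.55 to 6.15 FPKM), Il33 (2.65, range 2.52 to 3.36 FPKM), Il1b (1.96, range 1 to 19.6 FPKM) and Il1f9 (1.66, range 0.0403 to 24.7 FPKM). Il1r2 (1.23 FPKM), Il1rn (1.07 FPKM), Il1rl1 (0.876 FPKM) and Il1a (0.409 FPKM) closed the order. Il1r1 and Il1f6, next to each other in this order, overlapped widely, as did the ranges of the ligands among themselves. Il18 and Il33, by contrast, stayed below Il1r1 in every library. Il1rl1 was below Il1r1 in every library and overlapped Il1r2.

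The make-up of the ligand transcripts differed between libraries more than the receptors did. The summed FPKM of the 7 ligand genes was 183 and 15.1 in aged-SP replicates 1 and 4, and 95.5, 11.9 and 10.4 in young-SP replicates 1, 2 and 4. Il1f6 alone made up 68.2%, 31.6% and 53.4% of this sum in aged-SP replicate 1, aged-SP replicate 4 and young-SP replicate 1, and 0% in the other two libraries. In young-SP replicates 2 and 4, Il18 (51.9% and 44.7%) and Il33 (25.1% and 32.4%) held most of the sum instead. The 3 receptor genes summed to between 9.91 and 14.5 FPKM, of which Il1r1 was between 78.6% and 84.1% in every library.

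**Figure D3:**
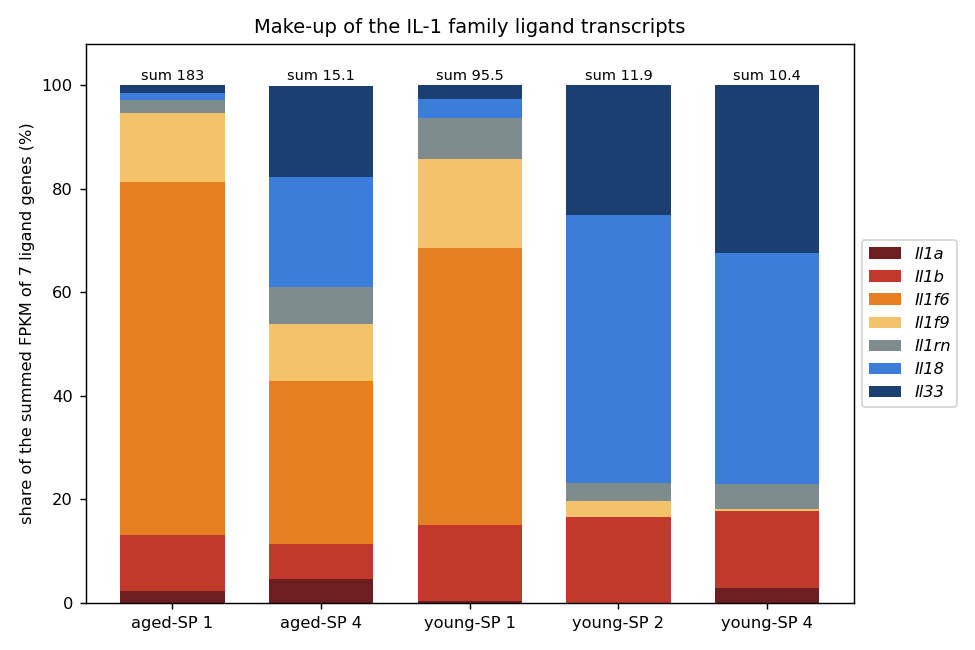
Share of each of 7 ligand genes (Il1rn included) in their summed FPKM, as a percentage on the y axis, for each of the 5 libraries, with the sum in FPKM above each bar. Il1f6 is the largest share in aged-SP replicate 1, aged-SP replicate 4 and young-SP replicate 1, and Il18 the largest in young-SP replicates 2 and 4.

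The balance of antagonist and agonist was read within each library, which needs no scaling between libraries. The ratio of Il1rn counts to the sum of Il1a and Il1b counts was 0.533 and 1.79 in aged-SP replicates 1 and 4, and 1.54, 0.597 and 0.792 in young-SP replicates 1, 2 and 4. The lowest and the highest ratio were thus both in the aged-SP group. The mean log2 ratio differed by 0.12 between the groups (exact permutation test, two-sided, p = 1, where 2 against 3 libraries allow no p below 0.2). The ratio of Il1r2 to Il1r1, decoy to signalling receptor, was 0.0348 and 0.0238 in the aged-SP group and 0.0685, 0.0422 and 0.0312 in the young-SP group. Its mean log2 ratio was lower by 0.64 in the aged-SP group, with overlap (aged minus young -0.64, exact permutation test, two-sided, p = 0.4). The difference was -0.33 without young-SP replicate 1 and -0.37 without aged-SP replicate 4.

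The comparisons depended on young-SP replicate 1 and on aged-SP replicate 1. Without young-SP replicate 1, edgeR called 3.45% of 16745 tested genes and 0 of the 10 members. The log2 fold changes were then 5.97 for Il1f9 (adjusted p = 0.116), 4.08 for Il1a (adjusted p = 0.168) and 2.61 for Il1rn (adjusted p = 0.118), and Il1f6, with 0 counts left in the young-SP group, had an adjusted p = 0.137, all with edgeR. DESeq2's Wald test on all 5 libraries, with 3.60% of 17536 genes called, also called 0 members, and gave no p-value for Il1f6. DESeq2 without young-SP replicate 1, an alternative chosen after seeing the data, called 3 members higher in the aged-SP group, where 3.34% of 17679 genes were called in that direction. These were Il1rn (log2 fold change 2.62, adjusted p = 0.000751), Il1f9 (6.06, adjusted p = 0.0211) and Il1f6 (adjusted p = 0.00802, with both remaining young-SP libraries at 0 counts). Without aged-SP replicate 1 in turn, the edgeR log2 fold changes of Il1b (-2.54), Il1f6 (-1.84), Il1f9 (-1.76) and Il1rn (-1.42) were all below 0.

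**Figure D4:**
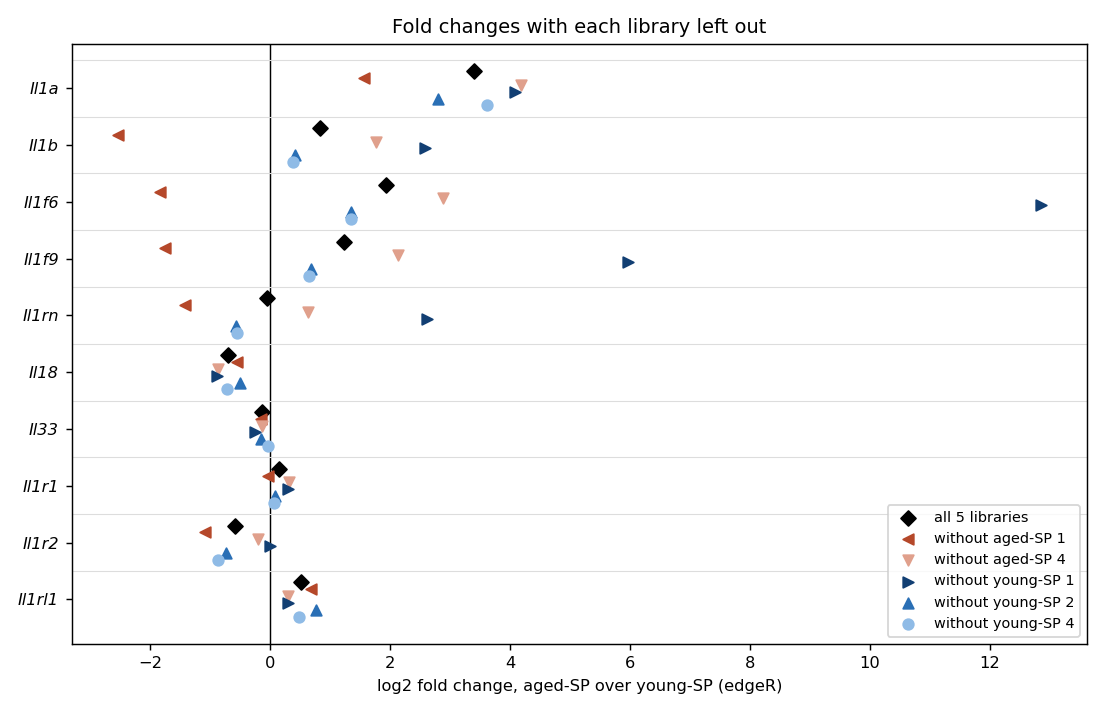
Log2 fold change of the aged-SP over the young-SP group (edgeR, x axis) for each family gene with all 5 libraries (black diamonds) and with each library left out in turn (coloured symbols). The Il1b, Il1f6, Il1f9 and Il1rn symbols lie on both sides of 0, while those of Il1a, Il18, Il33 and Il1rl1 each stay on one side of 0.

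Other genes of the family, of cytokine maturation, of signalling and of the response to IL-1 were read from the same fit. Of 61 listed genes, 60 were in the table and 55 were tested, and edgeR called 0 of them. Of these, 11 had an unadjusted p under 0.05 (against 19.0% of all tested genes), and their median log2 fold change was 0.24, against 0.01 over all tested genes.

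The remaining receptors and subunits differed in their spread. Il1rap, the accessory chain shared by IL-1, IL-33 and IL-36 receptors, was at 24 and 17.9 CPM in aged-SP replicates 1 and 4, and at 24.4, 13.7 and 15.7 CPM in young-SP replicates 1, 2 and 4. Il1rl2, the receptor for the variable ligands Il1f6 and Il1f9, stayed between 24.2 and 27.2 CPM in all 5 libraries (log2 fold change -0.03, SE 0.12, adjusted p = 0.922, edgeR). The IL-36 ligands thus differed between libraries by orders of magnitude beside a steady level of their receptor. Il18r1 was between 3.92 and 14.5 CPM, both in the aged-SP group, a log2 difference of -1.85 between replicates 1 and 4 that is larger than that of 95% of tested genes. Il18rap was between 4.79 and 9.25 CPM, and the inhibitory receptor Sigirr was between 11.5 and 17.1 CPM. Il18bp, the soluble inhibitor of IL-18, was at 11.1 and 12.3 CPM in the aged-SP group, and at 15.4 CPM in young-SP replicate 1 against 4.60 and 5.27 CPM in young-SP replicates 2 and 4. Il18bp was called by edgeR without young-SP replicate 1 (log2 fold change 1.23, adjusted p = 0.0413). Il1f8, the gene of IL-36β, had its highest level in young-SP replicate 1 (7.68 CPM) and its lowest in young-SP replicate 2 (0.0590 CPM).

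Among the 10 maturation and release genes, all tested, the median log2 fold change was -0.06. Casp8, a caspase that can process IL-1β, was at 28.6 and 36.3 CPM in the aged-SP group and at 43.4, 41.5 and 44.4 CPM in the young-SP group (log2 fold change -0.41, adjusted p = 0.197, edgeR). Among the 23 signalling genes, 6 had an unadjusted p under 0.05 by edgeR, against 19.0% of all tested genes. Aged-SP levels were higher in 5 of them and lower in 1. The higher ones were the NF-κB subunits Relb (log2 fold change 0.81, adjusted p = 0.154), Rela (0.37, adjusted p = 0.179) and Nfkb2 (0.50, adjusted p = 0.213), the inhibitory kinase Irak3 (1.19, adjusted p = 0.207) and the adaptor ligase Traf6 (0.28, adjusted p = 0.218). Relb was between 16.5 and 25.4 CPM in the aged-SP group and between 11.1 and 13.3 CPM in the young-SP group. Myd88, the adaptor of IL-1 family receptors, was the lower one (-0.88, adjusted p = 0.229), with 44.2 and 33.1 CPM against 57.2, 55.5 and 101 CPM. None of these passed the adjustment by edgeR with all libraries. DESeq2 with all libraries gave Relb an adjusted p = 0.0475, but its fold change was too small for a call. DESeq2 without young-SP replicate 1, the alternative chosen after seeing the data, called Myd88 (log2 fold change -1.02, adjusted p = 0.0176).

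The 17 response genes, of which 15 were tested, had a median log2 fold change of 1.04. Of the tested ones, 4 had an unadjusted p under 0.05 (against 19.0% of all tested genes), all higher in the aged-SP group. These chemokine and adhesion genes were Ccl2 (log2 fold change 3.35, adjusted p = 0.198), Ccl20 (5.59, adjusted p = 0.215), Cxcl1 (4.17, adjusted p = 0.202) and Icam1 (1.04, adjusted p = 0.261), by edgeR. Each was highest in aged-SP replicate 1. Ccl2, for example, was at 42.8 CPM there and between 1.83 and 2.53 CPM in the other 4 libraries, and Ccl20 at 24.7 CPM against at most 0.687 CPM. Cxcl1 was picked by the study from these samples, so its direction is not independent evidence, and it was the 1 listed gene that DESeq2 called with all libraries (adjusted p = 0.0146). Lcn2, the gene of the iron-binding protein lipocalin 2, was high in the 3 libraries with Il1f6 counts and low in the 2 without. It was at 1670 and 1084 CPM in the aged-SP group and at 1632, 2.30 and 4 CPM in young-SP replicates 1, 2 and 4. Between aged-SP replicates 1 and 4, however, it differed by 0.62 on the log2 scale, against 4.68 for Il1f6. Without young-SP replicate 1, edgeR called Lcn2 (8.76, adjusted p = 0.00744) and the prostaglandin synthase gene Ptgs2 (2.73, adjusted p = 0.0244).

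The summed levels of some marker lists differed between the same libraries, although the genes of a list did not all share 1 order. The summed level of 9 neutrophil genes was 110 and 29.8 CPM in aged-SP replicates 1 and 4, and 252, 55.7 and 35.5 CPM in young-SP replicates 1, 2 and 4. Its most abundant gene, S100a9, was at 50, 2.17, 102, 14.5 and 5.33 CPM in that order. As for Il1rn, young-SP replicate 1 was highest and aged-SP replicate 1 next, and as for Il1b, aged-SP replicate 4 was lowest. Other genes of the list had other orders: Retnlg was lowest in young-SP replicate 1 (8.62 CPM, against 8.94 to 18.4 CPM), Ly6g was highest in aged-SP replicate 4 (1.21 CPM), and Mmp8 and Ngp were highest in aged-SP replicate 1 (1.93 and 1.15 CPM). Il1b, Il1rn and Il1r2 are also transcribed by neutrophils, and 0 of the 8 tested neutrophil genes were called. The part of neutrophils in these levels was not tested.

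The sum of 8 macrophage genes was 609 and 959 CPM in the aged-SP group and 1008, 492 and 709 CPM in the young-SP group, and did not separate the libraries with high Il1b. The sum of 5 estrogen response genes was 7849 and 7643 CPM in the aged-SP group and 5975, 425 and 1147 CPM in young-SP replicates 1, 2 and 4, led by Ltf (from 28.2 to 4324 CPM). It was thus high in the 3 libraries with Il1f6 counts and low in the 2 without. Ltf, C3 and Muc1 each had this division. Sprr2f did not, with 64.3 CPM in aged-SP replicate 1 and 92.4 CPM in young-SP replicate 4, and Sprr2a2 did not exceed 0.0625 CPM. The sum of 6 gland genes was 4072 and 2926 CPM in the aged-SP group, against 507, 50.6 and 41.7 CPM in the young-SP group. In the aged-SP group and in young-SP replicate 1, nearly all of it was Prss28 and Prss29. In young-SP replicates 2 and 4, Prss28 (0.354 and 0.267 CPM) and Prss29 (2.95 and 11.5 CPM) were the smaller part. Of the other gland genes, Foxa2 was between 8.5 and 14.1 CPM in all libraries, and Spink1 was at 153 CPM in aged-SP replicate 1 and at most 12.2 CPM elsewhere. Cxcl15 had the reverse direction, with 2.9 and 1.92 CPM in the aged-SP group and 8.68, 20.1 and 8.13 CPM in the young-SP group (log2 fold change -2.35, adjusted p = 0.116, edgeR; adjusted p = 0.000254, DESeq2). The sum of 8 genes of uterine epithelium was 1193 and 1350 CPM against 1579, 740 and 928 CPM. The part of estrogen response, glands or epithelium in the levels of Il1f6 and Il1f9 was not tested. The 9 stratified epithelium genes summed to between 9.71 and 20.3 CPM, of which Krt10 made up 14.9 CPM in the highest library, young-SP replicate 4. Dsg3 alone of this list was highest in the libraries with most Il1f6, with 3.8 CPM in aged-SP replicate 1 and 2.25 CPM in young-SP replicate 1. It was at 0.447, 0.413 and 0.8 CPM in aged-SP replicate 4 and young-SP replicates 2 and 4. By contrast, Krt10 and Trp63 were lowest in aged-SP replicate 1 (2.96 and 0.785 CPM). Lor was lower in young-SP replicate 1 (2.81 CPM) than in young-SP replicate 2 (3.78 CPM). The part of stratified epithelium was not tested.

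Of the remaining lists, leukocyte genes summed to between 280 and 395 CPM, T and NK cell genes to between 27.1 and 47.5 CPM, and eosinophil genes to between 9.75 and 20.3 CPM. Genes of stroma summed to between 1117 and 1517 CPM, of myometrium to between 8481 and 13503 CPM and of endothelium to between 418 and 686 CPM. The 5 progesterone response genes summed to between 41.1 and 150 CPM, and Cyp26a1 alone gave 104 CPM in aged-SP replicate 1. Of them, Ihh, Areg, Calca and Fst had each aged-SP library below all 3 young-SP libraries. Among all tested genes, 38.8% had no overlap between the groups. With all libraries, edgeR called 0 genes of the marker lists, where 0.147% of all tested genes were called. DESeq2 with all libraries, with 3.60% of 17536 genes called, called 5 genes of these lists, each lower in the aged-SP group. These were Ihh (log2 fold change -1.78, adjusted p = 0.109 by edgeR and 0.000122 by DESeq2), Calca, Areg, Cxcl15 and Krt10. Without young-SP replicate 1, DESeq2 called marker genes in both directions, where 1004 of 17679 genes were called. Higher were 3 of 8 epithelium, 2 of 6 gland and 3 of 5 estrogen response genes. Lower were 3 of 5 progesterone response, 1 of 6 gland and 1 of 9 stratified epithelium genes.

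**Figure D5:**
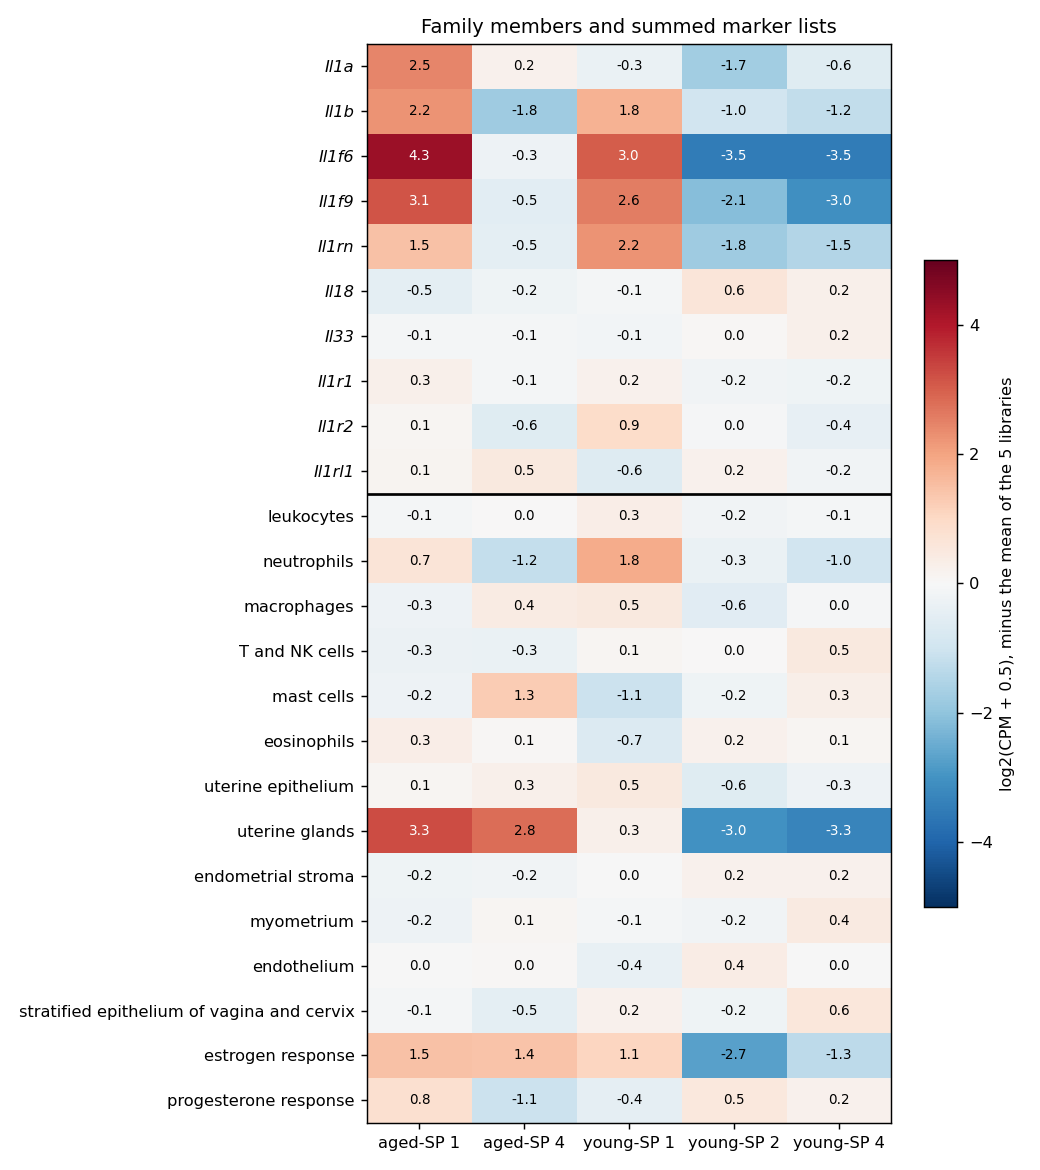
Levels of the 10 family genes (above the line) and of the summed marker lists (below it) in the 5 libraries, as log2(CPM + 0.5) minus the mean of the 5 libraries (red higher, blue lower). Il1f6 and Il1f9 are lowest in young-SP replicates 2 and 4, as are the uterine gland and estrogen response sums, and the neutrophil sum is highest in young-SP replicate 1.

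Some reads could belong to other genes. Il1a overlaps exons of the antisense gene Gm14023 (0 to 5 counts) and Il1b those of Il1bos (1 to 9 counts), and it is not stated whether counting used the strand. Of the 50-base stretches of the transcripts, 9.14% of those of Il1a and 8.63% of those of Il1f9 also occur in transcripts of other genes, against 0.330% for Il1rn, 0.0571% for Il1rl1 and 0% for the other members.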

How the data were processed

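Uterine RNA was sequenced by the authors from libraries made with a NEBNext Ultra RNA kit. They filtered the reads, aligned them with HISAT2 2.1.0 and deposited raw counts per gene. HTSeq 0.6.0 and Bowtie2 2.2.3 are listed in the submitters' processing notes without a role. The genome build is not given in the sources used here, and 26998 of 28666 gene positions equal those of GENCODE M21 on GRCm38, while 74 identifiers are not in it. The FPKM values deposited by the authors equal counts divided by gene length and library total. The authors' own DESeq2 columns (mean, fold change and p-values) were not used. A young-SP library that the authors excluded was not analysed here, and 0 columns of single libraries were left unused.

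Counts were compared with edgeR 4.0.16 in R 4.3.3 (TMM, factors 0.990 to 1.02; filterByExpr; glmQLFit and glmQLFTest, two-sided), with Benjamini-Hochberg adjustment over 17013 genes, without covariates. Log2 CPM had a prior count of 2. The variation of a typical gene between libraries was 25.1% of its mean. Total counts of 15071914 to 16728601 make 3 counts, the floor used for a count of 0, equal to 0.179 to 0.199 CPM, and such limits cover counting error only. DESeq2 1.42.0 and limma 3.58.1 served as alternatives, and the script was tested on simulated data. Sequences are from RefSeq (GRCm38.p6), and 9 of the 10 members matched, Il1f6 being the one that did not.

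All 10 members, the family receptors and subunits, up to 6 further genes of each pathway list by smallest unadjusted p under 0.05, and the most abundant gene of each marker list were named by rule. Lcn2, Ptgs2, Il1f8 and the further marker genes named beside a list's sum were added after their values were seen. The members and lists were chosen with earlier results of these data known.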

Additional observations from a re-analysis of the deposited data

How the results depend on the processing

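With 2 and 3 libraries, and some members at 0 to 66 counts, the fold changes of Il1a, Il1b, Il1f6, Il1f9 and Il1rn had standard errors above 1 on the log2 scale. Over 137 alternative fold changes of the members, 124 kept their direction and their side of the threshold, 11 reversed and 2 kept their direction and newly passed it. The reversals include Il1rn with DESeq2 and without young-SP replicate 1, which also passed (adjusted p = 0.000751), so that 3 values newly passed in all. Il1a, Il18, Il33 and Il1rl1 never reversed. With one library left out at a time, the log2 fold change ranged from -2.54 to 2.58 for Il1b, from -1.84 to 12.86 for Il1f6 (no bound, since it rests on counts of 0), from -1.76 to 5.97 for Il1f9, from -1.42 to 2.61 for Il1rn, from -0.03 to 0.31 for Il1r1 and from -1.09 to 0.00 for Il1r2, and the log2 ratio of Il1rn to Il1a plus Il1b from -0.76 to 0.99 and that of Il1r2 to Il1r1 from -0.91 to -0.33. Il1rl1 ranged from 0.29 to 0.76. Il1rn also reversed with limma-voom (0.94). With DESeq2 and without young-SP replicate 1, an alternative chosen after seeing the data, Il1rn was at 2.62 and Il1r2 at 0.01, 3 members and 6 pathway genes were called, and 1004 genes in all. The number of all called genes, 25 by edgeR, was 632 with DESeq2, 203 without the filter on low counts, and 1 to 578 with one library left out. The pathway genes called were 1 with DESeq2 and 0 to 3 with one library left out. Lone aged-SP libraries were assumed to vary like the other group.

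The groups share replicate numbers 1 and 4, which the labels do not tie to a litter, day or batch. The deviations of same-numbered libraries from their group means correlated at 0.152 and 0.136, over genes, with 2 pairs only. The deviations of the 2 aged-SP libraries mirror each other by construction, so these values are not independent and cannot show a pairing. Aged-SP replicate 4 with young-SP replicate 2, which differ in number, gave 0.0757. A fit with the replicate block called 2 genes and 0 members, with Il1rn at 0.03.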
